A study of Nicotiana benthamiana with 9 samples.

Results

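A set of 136 genome assembly sequences of Nicotiana benthamiana carried at least 2-fold more leaf RNA reads after wounding than in untreated plants, while their level after heat stayed near that of untreated plants. They were chosen from a table of 56094 scaffolds and contigs by group means on the deposited CPM scale, that is, read counts per 1000000 divided by a scaling factor for each library, with 0.5 CPM added to each mean in a ratio. A member had a wound mean of at least 5 CPM, a wound over mock ratio of at least 2, a heat over mock ratio above 0.67 and below 1.5, and every wound library above every mock library. Nicotiana benthamiana is a relative of tobacco widely used for transient expression of genes in leaves. All plants were 5 weeks old, were grown in soil under long days and gave leaf RNA. Wounded plants had leaves cut with scissors followed by 1 h at 23 °C, heat-treated plants spent 1 h at 37 °C, and mock plants, the control, spent 1 h at 23 °C without a wound. There were 3 libraries in each of the 3 groups, which the series calls biological replicates, and the labels name no transgene or mutation. The libraries held between 13846165 and 17480792 counts.

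Wounding a leaf breaks cells open and sets off electrical, calcium and peroxide signals that reach undamaged tissue. In many plants the hormone jasmonate accumulates soon afterwards, its JAZ repressor proteins are degraded, and transcription factors such as MYC2 switch on genes for defence and for jasmonate synthesis itself. Heat acts through other regulators, the heat shock factors, which switch on genes for chaperones that keep proteins folded. The deposited table does not pair its sequences with genes. Each row is a whole scaffold or contig starting at position 1, so a long member can pool the transcripts of several genes, and the members are described without gene names, functions or cell types. The leaf label could for the same reason not be checked against marker genes. In leaf tissue taken as a whole, a change in the number of cells of a type and a change in RNA per cell cannot be told apart.

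The wounding criteria alone left 280 sequences, and the heat limits divided them into 3 classes. Of the 7167 sequences with a wound mean of at least 5 CPM, 284 had a wound over mock ratio of at least 2, and 280 of these had every wound library above every mock library, which 19.5% of the 9645 sequences with enough counts to be tested had. The members were 136 of the 280, or 48.6%. Another 98 had a heat over mock ratio of 1.5 or more, and 46 had one of 0.67 or less. Members comprised 126 scaffolds and 10 contigs.

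**Figure D1:**
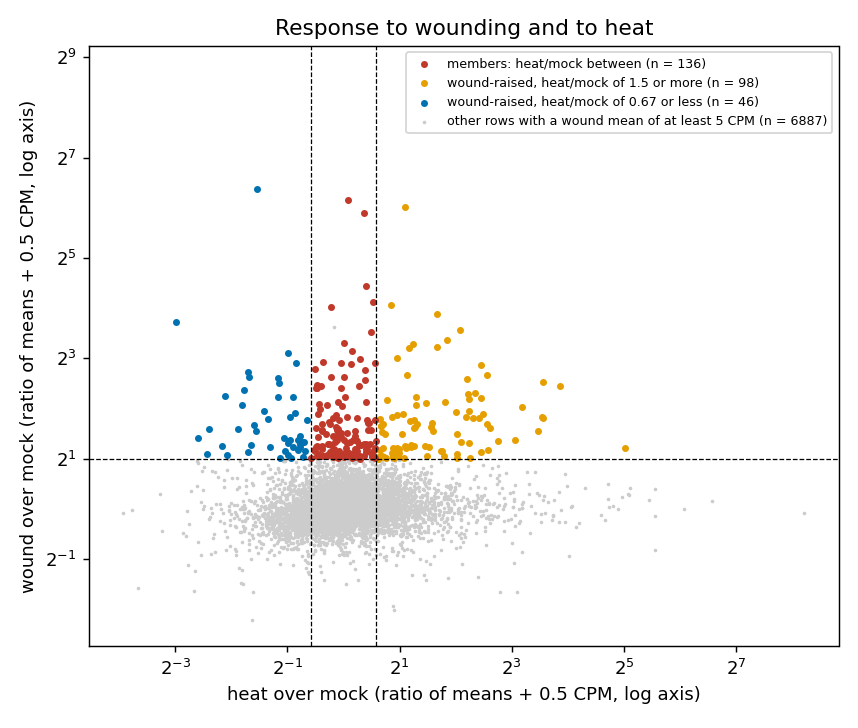
Wound over mock against heat over mock for the 7167 sequences with a wound mean of at least 5 CPM, on log axes, with dashed lines at the limits of the rule. The 136 members (red) lie between heat over mock ratios of 0.67 and 1.5 and reach a wound over mock ratio of 71.9; the grey points above the horizontal line are the 4 sequences whose wound libraries did not all exceed the mock libraries.

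Together the members held 15978, 17918 and 14793 CPM in the wound libraries, 5865, 6519 and 6701 CPM in the heat libraries and 6363, 6301 and 6043 CPM in the mock libraries. All 3 wound libraries were far above all others, and the heat and mock libraries overlapped. The means were 16230 ± 1578 CPM after wounding, 6362 ± 440 CPM after heat and 6236 ± 170 CPM in mock (SD, n = 3 each), so that the summed level was 2.60 times that of mock after wounding and 1.02 times after heat. Members took 1.62% ± 0.167 of all counts in wound libraries, 0.610% ± 0.0266 in heat libraries and 0.652% ± 0.0357 in mock libraries. Because the rule used these values, they describe the choice and carry no test.

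The 10 members with the highest wound mean held 36.7% of the summed wound level, and 17 held 50.5% of it. The median wound mean of a member was 57.1 CPM, with quartiles of 23.1 and 123.3 CPM. After heat the median was 18.8 CPM and in mock 18.3 CPM. The median wound over mock ratio was 2.54, with quartiles of 2.18 and 3.54, against a median of 1.00 over the 9645 tested sequences. Ratios between 2 and 3 made up 89 members, 23 lay from 3 to under 5, 18 from 5 to under 10 and 6 at 10 or more. Close above the limit, 41 of the 136 had a ratio under 2.2.

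**Figure D2:**
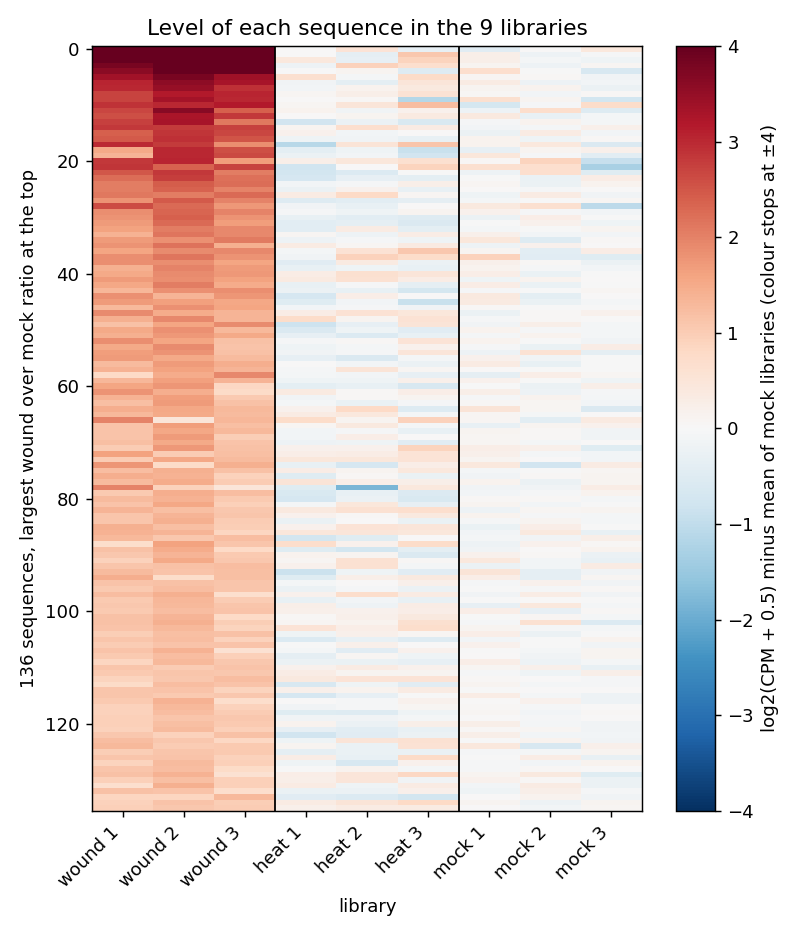
Level of each of the 136 members in the 9 libraries as log2(CPM + 0.5) minus the mean of the 3 mock libraries, with members in rows by their wound over mock ratio and libraries in columns; the colour scale stops at 4 in either direction. The 3 wound columns are red or pink in every row, while heat and mock columns stay pale apart from a few cells.

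In edgeR's quasi-likelihood fit, with Benjamini-Hochberg adjustment over 9645 sequences and a threshold of 0.05, 135 of the 136 members were called higher in wound than in mock libraries, where 9.86% of all tested sequences were called higher. The rule chose on this contrast, so nothing is read from that count. The fitted log2 fold changes of the members ran from 1.00 to 7.97 with a median of 1.37 and a median standard error of 0.180. The median over all tested sequences was within 0.01 of 0. The member not called was a scaffold of 30357 nt with 104.2, 50.1 and 36.8 CPM in wound libraries, 18.4, 7.06 and 35.2 CPM in heat libraries and 23.5, 23.7 and 32.2 CPM in mock libraries. Wound replicate 1 was more than double either of the other wound libraries there.

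Members with almost no signal in mock plants included the 2 largest ratios. Given the minimum wound mean of the rule, so low a mock mean makes a high ratio by construction. There were 9 members with a mock mean under 1 CPM, of which 8 were scaffolds and 1 was a contig, with lengths of 1371 to 273360 nt. Their wound means ran from 5.29 to 62.9 CPM and rested on at least 237 counts over the 3 libraries, against at most 51 counts over the heat libraries and 48 over the mock libraries. None had a heat mean above 1.12 CPM.

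The largest ratio belonged to a scaffold of 217860 nt, with 31.4, 58.9 and 98.3 CPM in wound libraries, 0.363, 0.759 and 0.181 CPM in heat libraries and 0.129, 0.368 and 0.648 CPM in mock libraries. Every wound library was far above every heat and mock library, and wound replicate 3 was the highest by a wide margin. With 2840 wound and 19 mock counts the ratio of library-scaled counts was 161.3, with an exact 95% binomial interval of 103.1 to 268.3. Such intervals pool the counts of the 3 libraries of a group, so they leave out the variation between libraries. The rule chose members on these same counts, and this scaffold was picked for its ratio. Intervals of members therefore need not keep their stated coverage, and they carry no test. Where several reads stem from 1 molecule, they are too narrow even for counting error.

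A scaffold of 273360 nt came close to silence outside wounded leaves, with 7.54, 11.7 and 9.65 CPM in wound libraries, 0, 0.607 and 0.422 CPM in heat libraries and 0.129, 0 and 0.118 CPM in mock libraries. Mock counts numbered 4 in all, and the ratio of counts was 117.1 with an interval of 45.4 to 431.7. A scaffold of 158883 nt had 10.3, 16.5 and 17.7 CPM in wound libraries, 0.363, 0.455 and 0.121 CPM in heat libraries and 0.903, 0.368 and 0.0589 CPM in mock libraries. In both, heat and mock libraries overlapped and every wound library was clear of them.

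The 33 members with a mock mean of 1 to under 10 CPM included 9 of the 10 contigs, and 9 of the 33 had a ratio of at least 5. Their median wound mean was 15.6 CPM, against 3.42 CPM after heat and 3.35 CPM in mock. The largest ratio among members with a mock mean of at least 1 CPM was that of Niben101Scf04930 (positions 1 to 137936), with 31.7, 38.2 and 39.2 CPM in wound libraries, 1.74, 0.834 and 2.65 CPM in heat libraries and 1.48, 1.10 and 1.00 CPM in mock libraries. The wound libraries lay close together, and heat libraries fell on both sides of mock. Means were 36.4 ± 4.06 CPM after wounding, 1.74 ± 0.908 CPM after heat and 1.20 ± 0.254 CPM in mock (SD, n = 3 each), and the fitted log2 fold change of wound over mock was 4.92 ± 0.301 (SE).

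Niben101Scf04817 (positions 1 to 134187) was the next, with 59.4, 80.8 and 60.8 CPM in wound libraries, 8.64, 5.08 and 9.46 CPM in heat libraries and 5.74, 5.58 and 4.77 CPM in mock libraries. Of its heat libraries, 2 exceeded every mock library and the remaining one lay between them, while all 3 were far below the wound libraries. Its fitted log2 fold change was 3.63 ± 0.218 (SE) for wound over mock and 0.54 ± 0.223 (SE) for heat over mock. The heat over mock ratio of 1.40 was near the upper limit of the rule.

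The largest class had a mock mean of 10 to under 100 CPM and held 76 members, with a median wound over mock ratio of 2.46. The highest ratio in this class was 8.87, from a scaffold of 121156 nt with 247.3, 344.9 and 234.9 CPM in wound libraries, 28.3, 33.5 and 40.1 CPM in heat libraries and 32.8, 33.5 and 25.7 CPM in mock libraries. A scaffold of 153325 nt followed, with 90.5, 124.5 and 114.5 CPM in wound libraries, 14.0, 15.6 and 20.0 CPM in heat libraries and 13.9, 12.5 and 13.8 CPM in mock libraries. Both had wound libraries several times above all others. In the second, every heat library also lay above every mock library, by a small margin.

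Among the 18 members with a mock mean of at least 100 CPM, ratios ran from 2.03 to 3.01, and 1 reached 3. These 18 carried 51.3% of the summed wound level of all members. Niben101Scf00841 (positions 1 to 351907) had the highest wound mean of all members, with 1121, 958 and 823 CPM in wound libraries, 474, 613 and 589 CPM in heat libraries and 349, 501 and 417 CPM in mock libraries. The wound libraries were clear of the rest, and heat and mock libraries overlapped. Means were 967 ± 149 CPM after wounding, 559 ± 74.3 CPM after heat and 422 ± 75.8 CPM in mock (SD, n = 3 each). The fitted log2 fold change was 1.19 ± 0.158 (SE) for wound over mock, 0.41 ± 0.156 for heat over mock and 0.78 ± 0.157 for wound over heat.

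Niben101Scf00493 (positions 1 to 184965) came second by wound mean, with 966, 728 and 664 CPM in wound libraries, 323, 386 and 357 CPM in heat libraries and 223, 267 and 296 CPM in mock libraries. Its 3 groups did not overlap at all, with heat libraries between the wound and the mock libraries. The fitted log2 fold changes were 1.58 ± 0.151 (SE) for wound over mock, 0.45 ± 0.148 for heat over mock and 1.13 ± 0.149 for wound over heat. Both of these abundant scaffolds were called higher after heat by edgeR as well, at ratios of 1.32 and 1.36 that the rule allows.

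**Figure D3:**
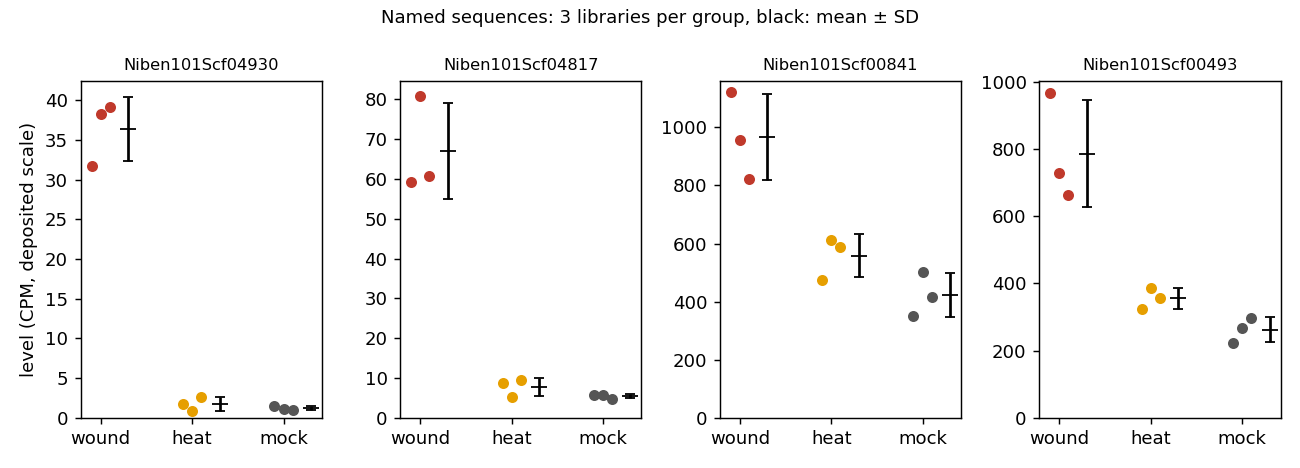
Level in CPM of 4 members, each on its own linear axis from 0, with 3 libraries per group as points and the mean ± SD in black beside them. In all 4 the wound libraries are highest and the heat mean lies between the wound and mock means; only in Niben101Scf00493 are the heat libraries all above the mock libraries.

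Heat over mock ratios filled the permitted range without a gap at its ends. There were 72 members with a heat mean above the mock mean and 64 with one below, and 81 members lay between 0.8 and its reciprocal. The count was 12 above a ratio of 1.4 and 8 below 0.72. By edgeR, 14 members were called higher after heat and 13 lower, where 27.4% of all tested sequences were called higher and 22.8% lower. The members called higher had heat over mock ratios of 1.17 to 1.47 and those called lower had 0.672 to 0.818. No member called after heat changed by 2-fold or more. Both heat limits were part of the rule, and they apply to means with 0.5 CPM added. Without that addition members with few counts lay farther from mock: the fitted log2 fold changes of heat over mock ran from -1.82 to 1.98, with a median of 0.04. The scaffold of 273360 nt, for one, had 15 counts over the heat libraries and 4 over the mock libraries. Under upper-quartile scaling, which moved the median log2 fold change of all sequences after heat to -0.17, the split became 2 higher and 30 lower. It was 8 higher and 9 lower without heat replicate 3, and 14 and 4 without heat replicate 1. Without mock replicate 1 it was 10 and 8, and without mock replicate 3 it was 10 and 7. The shares of all tested sequences called under these settings are not given here. Whether members moved more than other sequences can therefore not be told from these counts.

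By library, heat and mock overlapped in most members. Every heat library was above every mock library in 16 members, or 11.8% of them, against 29.7% of all tested sequences. Every heat library was below every mock library in 26 members, or 19.1%, against 27.5% of all tested sequences. Wound libraries were set directly against heat libraries too: every wound library exceeded every heat library in 132 of the 136 members, where 30.8% of all tested sequences did so, and 134 were called higher by edgeR, where 25% were. The heat limits fix most of that difference. The median wound over heat ratio was 2.73, the lowest was 1.37, and 31 members lay under 2. That lowest ratio was from a scaffold of 694306 nt, with 19.8, 23.1 and 20.6 CPM in wound libraries, 12.9, 14.9 and 18.2 CPM in heat libraries and 11.0, 8.84 and 10.9 CPM in mock libraries. Its 3 groups did not overlap, with heat between wound and mock. Of the 2 members that edgeR did not call between wound and heat, 1 was a scaffold of 30980 nt with 138.4, 161.6 and 94.2 CPM in wound libraries and 74.6, 87.0 and 108.7 CPM in heat libraries, which overlapped. The other was a scaffold of 79571 nt with 18.9, 6.37 and 11.9 CPM in wound libraries and 7.63, 4.78 and 8.74 CPM in heat libraries.

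Sequences on either side of a limit had similar ratios. Just inside the wound limit lay a scaffold of 199676 nt with a wound over mock ratio of 2.002, and just outside it a scaffold of 81689 nt with 1.990. At the upper heat limit the last member was the same scaffold of 79571 nt, with a heat over mock ratio of 1.499 and the first sequence outside had 1.535. At the lower heat limit these ratios were 0.672 inside and 0.636 outside. By wound mean, the lowest member had 5.29 CPM, and a contig with 4.94 CPM was just outside. The demand that every wound library exceed every mock library kept out 1 sequence inside all other limits, a scaffold of 125098 nt with 0, 6.51 and 12.9 CPM in wound libraries, no count in any heat library and 0.193, 0 and 0 CPM in mock libraries.

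Length was no part of the rule, but it sets how much transcribed sequence a row can hold. Members had a median length of 199306 nt, with quartiles of 85014 and 397558 nt. The median was 190170 nt in the wound-raised class with a heat over mock ratio of 1.5 or more, 171560 nt in the class at 0.67 or less, and 273780 nt over the 7167 sequences with the same minimum wound mean. Sequences of 200000 nt or more made up 49.3% of the members and 62.3% of those 7167. Of the members, 56 were from 20000 to under 200000 nt, 4 from 2000 to under 20000 nt and 9 under 2000 nt. The median wound over mock ratio was 2.29 in the longest class, 2.91 in the next, 3.27 in the 4 members below that and 2.87 in the shortest. The highest ratio in the longest class was nevertheless 71.9.

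**Figure D4:**
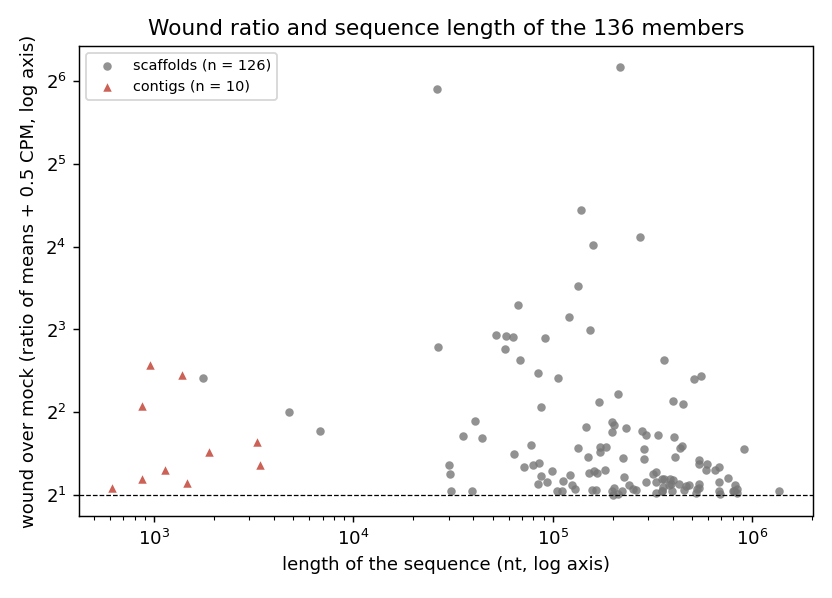
Wound over mock ratio of each member against the length of its sequence, both on log axes, with contigs as triangles, scaffolds as circles and a dashed line at the limit of 2. The 10 contigs have ratios of 2.12 to 5.94, and the 6 ratios of 10 or more all belong to scaffolds.

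Per unit of length the order of the members was another one. On the deposited RPKM scale, which divides by the whole length of the sequence, members had a median level of 0.312 after wounding, 0.110 after heat and 0.113 in mock. The 10 contigs, of 617 to 3393 nt, had a median of 7.64 RPKM after wounding, 2.23 RPKM after heat and 1.98 RPKM in mock. The highest level per length was that of a scaffold of 4772 nt, with 14.9 RPKM after wounding, 2.59 RPKM after heat and 3.84 RPKM in mock. It had 61.3, 92.0 and 60.8 CPM in wound libraries, 13.9, 12.8 and 11.9 CPM in heat libraries and 14.6, 20.8 and 17.0 CPM in mock libraries. Every wound library was far above the others, and all heat libraries were below all mock libraries.

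A contig of 954 nt followed with 14.4 RPKM after wounding, 2.60 RPKM after heat and 2.09 RPKM in mock. Its levels were 17.8, 15.6 and 7.88 CPM in wound libraries, 0.581, 2.81 and 4.46 CPM in heat libraries and 2.06, 2.58 and 1.06 CPM in mock libraries, so heat libraries lay on both sides of mock. A scaffold of 63866 nt, too, was shorter than the lower quartile of member lengths. It reached 11.2 RPKM after wounding, 3.06 RPKM after heat and 4.12 RPKM in mock. It had 819.6, 718.3 and 608.6 CPM in wound libraries, 200.5, 169.0 and 240.1 CPM in heat libraries and 282.9, 228.2 and 247.6 CPM in mock libraries.

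The members shared a pattern among the wound libraries. The rule names no replicate, but it used the mean of the wound libraries, so 1 high library can help bring a sequence in. Leaving out replicate 2 lost 25 members, against 7 for replicate 1 and 3 for replicate 3. Wound replicate 2 was the highest wound library in 95 of 136 members (69.9%), replicate 1 in 25 and replicate 3 in 16. Among the 7031 other sequences with the minimum wound mean, replicate 2 was highest in 37.5%. It was highest in 61.2% of the wound-raised sequences with a heat over mock ratio of 1.5 or more and in 71.7% of those at 0.67 or less. On the log2(CPM + 0.5) scale the median member deviated from its wound group mean by 0.19 in replicate 2, by -0.08 in replicate 1 and by -0.09 in replicate 3, while the medians of the other sequences were within 0.01 of 0. The count was 93 of 136 with TMM-scaled counts and 96 with unscaled library totals. Members from one library share its depth and scaling, so they are not separate replicates of this pattern, and no test was made.

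**Figure D5:**
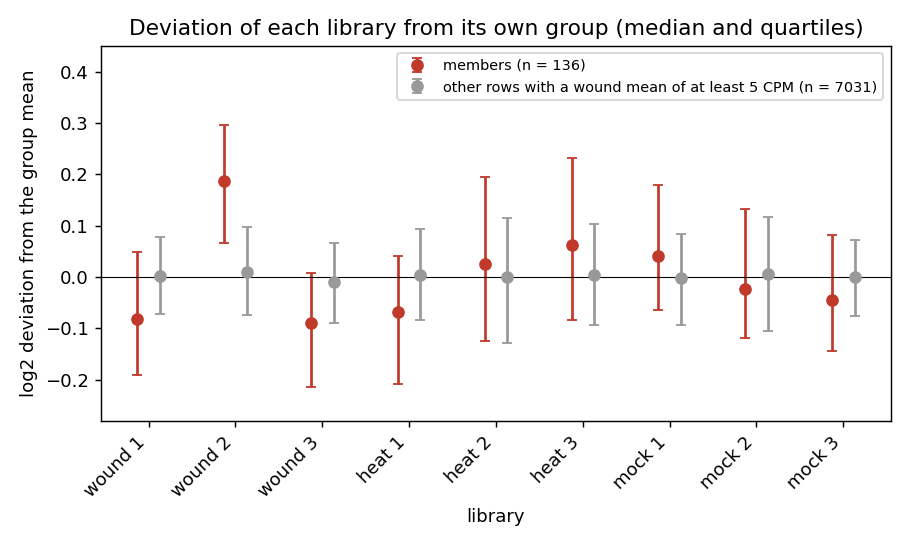
Deviation of each library from the mean of its own group on the log2(CPM + 0.5) scale, as median and quartiles over the 136 members (red) and over the 7031 other sequences with a wound mean of at least 5 CPM (grey). Wound replicate 2 has a median of 0.19 over the members, while all grey medians are near 0.

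Spread within a group differed between members. The SD of log2(CPM + 0.5) over the 3 wound libraries had a median of 0.24 among members, against 0.12 over the 7167 sequences with the minimum wound mean. In heat libraries the medians were 0.23 and 0.15, and in mock libraries 0.20 and 0.14. Wound-raised sequences at or above the upper heat limit had medians of 0.272 in wound, 0.359 in heat and 0.259 in mock libraries. For those at or below the lower heat limit the medians were 0.323, 0.285 and 0.266. Both of these classes thus had a larger median spread than the members in every group. The highest wound library exceeded the lowest by a median factor of 1.38, with 0.5 CPM added, and by more than 2 in 11 members. A contig of 1371 nt varied most, with 3.25, 11.3 and 8.47 CPM in wound libraries, 0.726, 0.834 and 0.361 CPM in heat libraries and 1.48, 0.921 and 0.589 CPM in mock libraries.

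The 25 members highest in wound replicate 1 included 6 of the 10 contigs and had a median length of 79571 nt. The 95 highest in replicate 2 had a median length of 273360 nt and 4 contigs, and the 16 highest in replicate 3 had no contig. Level differed as well, with median wound means of 33.7, 67.3 and 32.5 CPM for replicates 1, 2 and 3. Length, kind and level were not separated, and no test was made. Niben101Scf00841 and Niben101Scf00493 belonged to the first of these sets.

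The rule was also applied with 1 library left out, and that library, which had no part in the choice, was then set against libraries that had. Without wound replicate 1 the rule chose 139 sequences, and that library lay above every mock library in 138 of them, where 34.1% of all tested sequences did so. For wound replicate 2 it was 116 of 116 (33.0% of all tested sequences), and for wound replicate 3 it was 151 of 153 (32.6% of all tested sequences). The left-out wound library exceeded the mock mean by a median factor of 2.39 for replicate 1, 3.02 for replicate 2 and 2.21 for replicate 3, against a median of 1.00 over all tested sequences in each case. The mock libraries served in both the choice and the reading, which favours a mock level that is low.

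A left-out mock library lay below every wound library in 143 of 145 sequences for replicate 1, in 128 of 132 for replicate 2 and in 124 of 124 for replicate 3, where 34.2%, 36.8% and 33.3% of all tested sequences did so. All 3 wound libraries in this reading had chosen the sequences as high, so these counts are favoured by the choice and nothing is read from them. Left-out heat libraries were read by another criterion, limits on both sides of the mock mean, so their counts do not compare with those above. Heat replicate 1 was inside the limits of 0.67 and 1.5 against the mock mean in 109 of 128 sequences, replicate 2 in 107 of 125 and replicate 3 in 100 of 144, where 58.7%, 62.4% and 56.6% of all tested sequences were. The mock libraries had a part in this choice too, so these counts are no independent check of the heat limits. The median ratio of the left-out heat library over the mock mean was 0.93, 1.01 and 1.12 for replicates 1, 2 and 3. Membership itself shifted with single libraries: 70 of the 136 members were chosen whichever of the 9 libraries was left out, 34 were lost in 1 case and 32 in 2 or more. Leaving out wound replicate 2 lost 25 members, mock replicate 3 lost 23 and mock replicate 2 lost 22.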

How the data were processed

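RNA sequencing values of 9 leaf libraries were read from 1 table with 4 values per library for 39565 scaffolds and 16529 contigs. The deposited counts are whole numbers per sequence. The deposited RPKM values divide by sequence length and library total; the deposited TPM values, which sum to 1000000 per library, were not used for results. The columns that the file headers call CPM are a deposited signal, the count divided by 1 constant per library, with factors of 0.936 to 1.10. No source used here gives the aligner, the counting tool, the build, the strand setting or the treatment of reads with several matches, so sequences with near-identical copies are uncertain.

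Counts were fitted with edgeR 4.0.16 in R 4.3.3 (filterByExpr, TMM, quasi-likelihood, 3 groups, 9 libraries), leaving 9645 sequences. A standard error is the log2 fold change over the square root of F. The script was tested on simulated data. Members and tests were chosen with earlier results of these data known. Sequence IDs were printed for 2 members by ratio (mock mean of at least 1 CPM) and 2 by wound mean; others, chosen after their values were seen, are given by length. DESeq2, other scalings, filters, limits and left-out libraries were tried.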

Additional observations from a re-analysis of the deposited data

How the results depend on the processing

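The number of members was 47 with a wound over mock ratio of at least 3, 340 with at least 1.5 and 81 with heat limits of 0.8 and its reciprocal, which narrow or widen the choice by construction. It was 114 on unscaled library totals, of which 108 were members, 134 with TMM-scaled counts, 132 when every wound library also had to exceed every heat library (chosen after seeing the data), and 116 to 153 with 1 library left out. Calls of members after heat moved most. Upper-quartile factors gave 2 higher and 30 lower, and no filter gave 19 and 23. Leaving out 1 library gave 8 to 14 higher and 4 to 14 lower. The shift of all sequences under upper-quartile factors is given above, and the cause of these changes was not tested. The shares of all sequences called under each of these settings are not given here. Calls of members higher after wounding than in mock numbered 128 to 136 over the 15 alternatives, and those higher after wounding than after heat likewise 128 to 136; the rule chose on both contrasts, so these ranges support nothing. The summed level of the members was 2.47 to 2.72 times that of mock with 1 library left out. Of the 9 same-numbered pairs of libraries, 1 correlated over 0.1 in deviations from the group mean, with a range of -0.19 to 0.16. These values cannot show whether libraries with the same number were handled together. With the replicate block, 134 members were higher after wounding than in mock, 134 higher than after heat, and 10 were higher and 12 lower after heat than in mock. A member near a limit, or one with few mock counts, may be placed less surely than the rest, which was not tested.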
